A study of Mus musculus with 5 samples.

Results

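The beaded filament and the membrane skeleton of lens fibre cells are represented here by 7 genes. They were taken by their symbols (Bfsp1, Bfsp2, Vim, Tmod1, Sptan1, Sptbn1 and Ank2), and all 7 are present among the 22183 genes of the deposited table and passed the filter on low counts. RNA was measured in whole lenses of mice at postnatal day 14 (P14), in 2 libraries of Yap1 conditional knockout lenses (cKO) and 3 libraries of control lenses (Ctrl). The cKO mice carried Yap1f/f;Cre or Yap1f/+;Cre and were chosen by a severe eye phenotype, small eyes with a closed pupillary membrane, so the group mixes both genotypes. The Ctrl mice were littermates with floxed Yap1 (Yap1f/f or Yap1f/+) and no eye abnormality, which the genotype field calls WT. Each library was a pool of 4 to 6 lenses. Which promoter drives Cre is not stated in the labels.

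Lens fibres carry an intermediate filament system that is largely specific to them. Bfsp1 (filensin) and Bfsp2 (phakinin, CP49) assemble together into beaded filaments, and vimentin forms ordinary intermediate filaments in the epithelium and the outer fibres. Under the fibre membrane lies a spectrin and actin network. Alpha and beta spectrin (Sptan1 and Sptbn1) pair into flexible tetramers, ankyrin-B (Ank2) ties them to membrane proteins, and tropomodulin 1 (Tmod1) caps the slow-growing ends of the short actin filaments at the network's nodes. In mice, loss of beaded filament proteins or of Tmod1 is known to disturb fibre packing.

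The libraries held 22047553 to 25762805 counts each, of which 66.4 to 73.9% fell on the 16 crystallin genes. Yap1 had 92 and 61 counts in cKO 1 and 2 and 155, 133 and 143 counts in Ctrl 1, 2 and 3, a log2 fold change of −1.08 (SE 0.33) that did not pass (edgeR quasi-likelihood test, adjusted p = 0.0759). The 8 lens fibre markers summed to 222288 and 235368 CPM in cKO and 245726 to 282520 CPM in Ctrl, most of it Cryaa, and they did not move together. Of the 8, Cryga (5326 and 839 CPM in cKO, 53138, 53801 and 56593 CPM in Ctrl) and Lgsn (261 and 61.8 CPM in cKO, 3331, 3253 and 2332 CPM in Ctrl) were called lower, and the other 6 were not called. The Y-linked genes Ddx3y and Eif2s3y had 0 counts in both cKO libraries and 558 to 854 counts in the Ctrl libraries, so sex, selection by eye phenotype and genotype cannot be told apart. The cKO libraries also differed by transcript length. Length could be computed for 6704 of the 11724 genes tested, those with at least 50 counts and 0.5 FPKM in every library. Relative to cKO 1, cKO 2 was lower for short transcripts (median log2 ratio −0.28 over 632 genes of up to 1 kb) and higher for long ones (0.26 over 232 genes above 6 kb). Between cKO and Ctrl, the median log2 fold change was 0.36 up to 1 kb, 0.25 from 1 to 2 kb, −0.06 from 2 to 4 kb, −0.31 from 4 to 6 kb and −0.12 above 6 kb. Whether length plays a part in any result below was not tested.

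Of the 7 genes, only Bfsp1 was called in the comparison of cKO with Ctrl, and it was 2.52-fold lower in cKO. A gene was called at a Benjamini-Hochberg adjusted p under 0.05 in edgeR's quasi-likelihood test over 11724 genes, of which 13.5% were called in all, 5.76% higher and 7.73% lower. At an unadjusted p under 0.05 edgeR gave 2 of the 7 as higher and 2 as lower, against 1737 and 2044 of the 11724 genes. DESeq2 called 1 of the 7 higher (Sptbn1) and 1 lower (Bfsp1), against 1185 and 1542 of 15761 genes with any count. The median log2 fold change of the 7 genes was −0.40, against −0.06 over all genes tested. The genes took 0.951 and 0.725% of all counts in cKO 1 and 2, against 1.18, 1.28 and 1.27% in Ctrl 1, 2 and 3. The groups did not overlap in this share (two-sided exact permutation p = 0.1, the lowest value that 10 splits of 5 libraries can give). The Bfsp1 and Bfsp2 counts made up 93.5 and 85.9% of it in cKO and 94.5 to 95.2% in Ctrl. In pooled whole lenses, fewer cells of a type and less RNA per cell cannot be told apart.

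Per length, the 7 transcripts spanned more than 2 orders of magnitude. In cKO, Bfsp2 stood at 3471 ± 889, Bfsp1 at 781 ± 178 and Vim at 144 ± 13.9 FPKM (SD, n = 2). The 4 membrane skeleton genes lay close together in cKO, at 25.2 ± 11.46 (Ank2), 21.0 ± 13.0 (Sptbn1), 20.6 ± 3.52 (Tmod1) and 19.5 ± 10.97 FPKM (Sptan1), and all 4 overlapped. In Ctrl, the first 3 places were the same, with Bfsp2 at 4709 ± 230, Bfsp1 at 1723 ± 77.1 and Vim at 93.7 ± 7.15 FPKM (SD, n = 3). Ank2 followed at 29.9 ± 8.53, Sptan1 at 26.1 ± 4.71, Tmod1 at 15.6 ± 0.468 and Sptbn1 at 8.16 ± 1.92 FPKM in Ctrl. Of the neighbours in the Ctrl order, Ank2 and Sptan1 overlapped between libraries and the others did not.

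**Figure D1:**
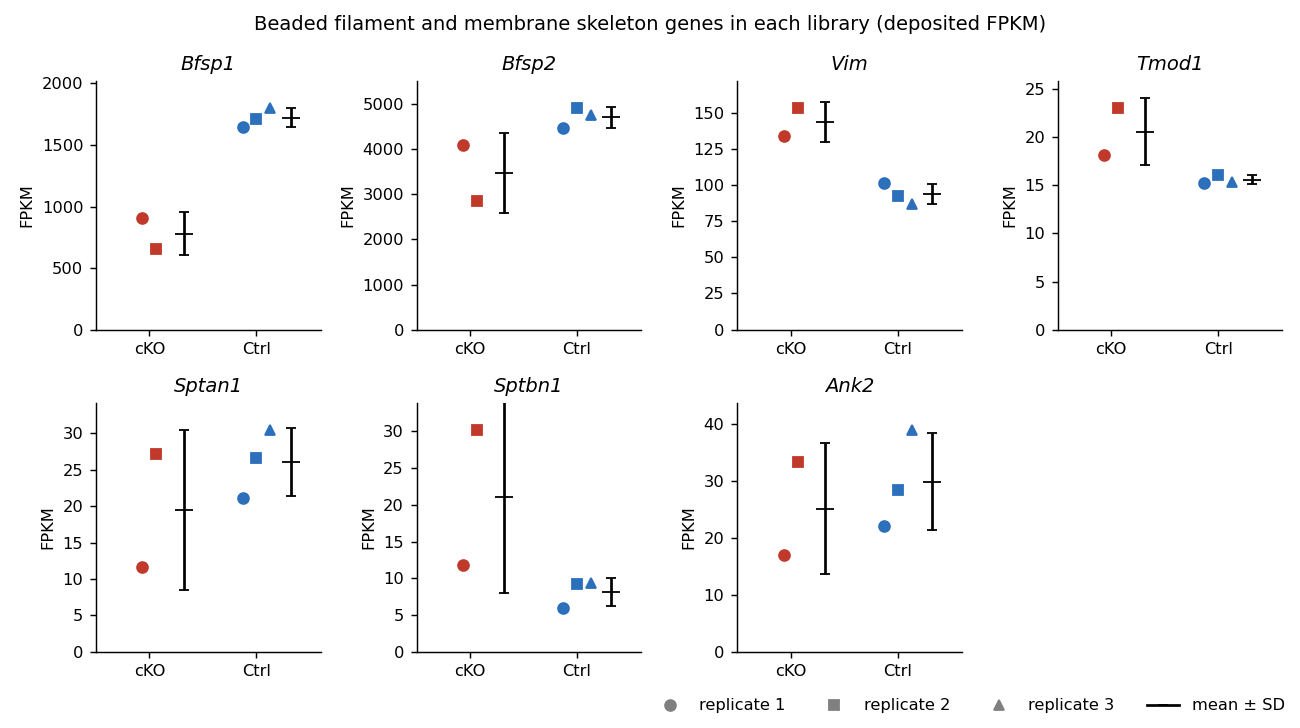
Deposited FPKM of each gene in each library, on a linear axis from 0, with cKO in red and Ctrl in blue, replicates by marker shape and black bars for mean ± SD (n = 2 and 3). Bfsp1 lies at 655 and 906 FPKM in cKO, below all Ctrl libraries, whereas Sptbn1 lies at 11.9 and 30.2 FPKM in cKO, above all Ctrl libraries.

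The beaded filament genes are shown first by the sequence around their starts, because they encode partners of 1 filament but only Bfsp1 was called. The stretches are the 250 bases before and 50 bases after the annotated start, 5′ to 3′ on the gene's strand, from RefSeq (GRCm38.p6, an earlier build than the GRCm39 named for the counts), in which all 7 genes matched by symbol. Capitals mark matches, on either strand, to 6 motifs. These were the TEAD core (GGAATG), the heat-shock element (GAANNTTC), the Maf recognition core (TGCTGA), the TATA box (TATAAA), the CCAAT box, searched by those letters, and the Sp1-type GC box (GGGCGG). No matches of different motifs overlapped in the stretches shown.
Bfsp1 (chr2:143863124-143863423, minus strand): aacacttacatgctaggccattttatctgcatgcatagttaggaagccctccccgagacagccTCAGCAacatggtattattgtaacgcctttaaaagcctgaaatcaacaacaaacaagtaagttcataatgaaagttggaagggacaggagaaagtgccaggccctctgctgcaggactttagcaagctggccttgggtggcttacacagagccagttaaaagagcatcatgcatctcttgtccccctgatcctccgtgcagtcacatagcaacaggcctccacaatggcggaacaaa
Bfsp2 (chr9:103449127-103449426, minus strand): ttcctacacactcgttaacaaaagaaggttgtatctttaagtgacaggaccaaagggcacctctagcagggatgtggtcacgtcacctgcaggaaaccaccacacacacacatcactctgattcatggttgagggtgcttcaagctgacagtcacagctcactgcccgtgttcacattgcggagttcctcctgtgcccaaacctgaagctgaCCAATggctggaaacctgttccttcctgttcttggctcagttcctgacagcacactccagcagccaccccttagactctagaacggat
The Bfsp1 stretch holds 1 Maf core, with its first base at position −187 from the start, and none of the other 5 motifs. The Bfsp2 stretch holds 1 CCAAT box, at position −38, and none of the others. Of 32851 RefSeq promoters, 19.5% hold the Maf core, 37.4% the CCAAT box, 14.7% the TEAD core, 7.86% the heat-shock element, 13.6% the TATA box and 35.7% the GC box. Among the 7 genes the TEAD core was found at Tmod1 alone, at position −163. Such matches only describe the letters in these windows.

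Bfsp1 had 2066 and 1267 CPM (counts scaled to TMM-adjusted library size) in cKO 1 and 2, against 4262, 4251 and 4102 CPM in Ctrl 1, 2 and 3. The Ctrl libraries lay close together, both cKO libraries were below them, and cKO 2 was the lowest. Bfsp1 thus fell by 1.34 in log2 terms, or 2.52-fold, with an SE of 0.24 (edgeR adjusted p = 0.0227). The direction was the same without any single library, which largely follows from the groups not overlapping. The call was lost with only 2 Ctrl libraries left (edgeR adjusted p = 0.0977, 0.121 and 0.0969 without Ctrl 1, 2 and 3). It was kept at −1.74 without cKO 1 and at −1.02 without cKO 2, fits in which the remaining cKO pool borrows its spread from Ctrl.

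Bfsp2, the most abundant of the 7 genes, had 6765 and 3987 CPM in cKO 1 and 2, against 8323, 8795 and 7798 CPM in Ctrl 1, 2 and 3. The groups did not overlap, with both cKO libraries lower. The log2 fold change of −0.63 (SE 0.25) did not pass (edgeR adjusted p = 0.141). It was −1.07 and passed without cKO 1 (edgeR adjusted p = 0.00122), and it was −0.29 without cKO 2, so its size rested on which cKO library was used. Both beaded filament genes were higher in cKO 1 than in cKO 2, by 1.63-fold for Bfsp1 and 1.70-fold for Bfsp2.

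Within a library, the ratio of Bfsp1 to Bfsp2 does not depend on how libraries are scaled. In FPKM it was 0.221 and 0.230 in cKO 1 and 2, against 0.370, 0.349 and 0.380 in Ctrl 1, 2 and 3. The ratio was thus nearly the same in both cKO libraries, although each gene differed between them, and it lay below all Ctrl libraries. The log2 ratio differed by −0.70 (cKO minus Ctrl, two-sided exact permutation p = 0.1, the lowest possible). Less Bfsp1 per Bfsp2 was therefore measured in every cKO library than in every Ctrl library.

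Vim, which encodes vimentin, had 291 and 284 CPM in cKO 1 and 2, against 249, 218 and 189 CPM in Ctrl 1, 2 and 3. Every cKO library was above every Ctrl library, as for 22.8% of all genes tested. The log2 fold change of 0.39 (SE 0.16) did not pass (edgeR adjusted p = 0.152). Scaling by total counts alone, under which the median of all genes was 0.16 in place of −0.06, gave 0.61 and passed (edgeR adjusted p = 0.0405). The ratio of Bfsp1 to Vim was 6.77 and 4.27 in cKO 1 and 2, against 16.3, 18.5 and 20.7 in Ctrl 1, 2 and 3 (log2 difference −1.78, two-sided exact permutation p = 0.1).

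Vimentin is also made by macrophages, endothelial cells, fibroblasts and lens epithelium, so their markers are given beside it. The 8 macrophage markers summed to 95.4 and 27.8 CPM in cKO 1 and 2 and to 1.41 to 2.83 CPM in Ctrl, with 4 of 5 tested markers called higher and Ptprc at 0 counts in Ctrl. Vim itself was 1.03-fold higher in cKO 1 than in cKO 2. The 6 endothelial markers summed to 20.2 and 12.03 CPM in cKO and 6.10 to 10.8 CPM in Ctrl, with 0 of 6 called by edgeR (2 higher and 1 lower at an unadjusted p under 0.05, and 1 higher by DESeq2). The 7 fibroblast and pericyte markers summed to 26.9 and 19.9 CPM in cKO and 33.0 to 34.5 CPM in Ctrl, with 1 of 4 tested markers called higher and 1 lower. Pdgfra, the marker called lower, made up most of the Ctrl sum (1.96 and 0 CPM in cKO, 20.5, 20.2 and 19.7 CPM in Ctrl). Col1a1 was the marker called higher (2.69 and 4.73 CPM in cKO, 0.371, 0.0976 and 0.0384 CPM in Ctrl), so the sum does not give a common direction. The 5 lens epithelium markers summed to 27.4 and 21.0 CPM in cKO and 150.0 to 213 CPM in Ctrl, with 4 called lower. The part of these cells in the Vim values was not tested.

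The promoter stretches of the spectrin pair are shown because their log2 fold changes had opposite signs, though neither was called. Capitals are as above.
Sptan1 (chr2:29965310-29965609, plus strand): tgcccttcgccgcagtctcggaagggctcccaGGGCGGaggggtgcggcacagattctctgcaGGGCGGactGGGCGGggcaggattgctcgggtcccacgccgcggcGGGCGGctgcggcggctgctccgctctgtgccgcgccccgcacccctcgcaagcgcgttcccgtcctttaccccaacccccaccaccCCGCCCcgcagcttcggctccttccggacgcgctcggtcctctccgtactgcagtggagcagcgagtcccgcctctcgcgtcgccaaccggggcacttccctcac
Sptbn1, first start (chr11:30219723-30220022, minus strand): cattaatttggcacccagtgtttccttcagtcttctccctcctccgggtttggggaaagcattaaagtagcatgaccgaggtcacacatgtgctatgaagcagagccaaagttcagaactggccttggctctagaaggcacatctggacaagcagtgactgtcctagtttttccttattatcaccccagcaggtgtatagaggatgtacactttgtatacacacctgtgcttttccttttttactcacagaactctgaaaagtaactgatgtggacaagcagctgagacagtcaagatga
Sptbn1, second start (chr11:30198208-30198507, minus strand): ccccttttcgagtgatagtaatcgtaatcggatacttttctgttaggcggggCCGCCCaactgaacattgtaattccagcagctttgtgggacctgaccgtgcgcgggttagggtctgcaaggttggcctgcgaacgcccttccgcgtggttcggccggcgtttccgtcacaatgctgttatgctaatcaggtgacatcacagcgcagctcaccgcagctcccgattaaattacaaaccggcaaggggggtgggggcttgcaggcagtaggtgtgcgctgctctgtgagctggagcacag
The Sptan1 stretch holds 5 GC boxes and has a GC content of 73.3%. The first Sptbn1 start has none of the 6 motifs and a GC content of 45.3%, and the second has 1 GC box and 57.0%. Which Sptbn1 start was in use cannot be read from counts per gene.

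Sptbn1, the beta spectrin gene, had 98.4 and 212 CPM in cKO 1 and 2, against 55.6, 82.7 and 76.6 CPM in Ctrl 1, 2 and 3. The groups did not overlap, with cKO 2 far above the rest. The log2 fold change was 1.11 (SE 0.34), the highest of the 7 genes, and did not pass (edgeR adjusted p = 0.0768), while DESeq2 gave 1.13 and called it (adjusted p = 0.00943). It was 1.55 and passed without cKO 1 (edgeR adjusted p = 0.000986), and it was 0.46 without cKO 2. The median of the 232 genes in the length class above 6 kb was −0.12.

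Sptan1, the alpha spectrin gene, had 91.8 and 178 CPM in cKO 1 and 2, against 174, 222 and 217 CPM in Ctrl 1, 2 and 3. The cKO 1 library was lowest, and cKO 2 lay among the Ctrl libraries. The log2 fold change of −0.60 (SE 0.29) did not pass (edgeR adjusted p = 0.217). It was −1.15 and passed without cKO 2 (edgeR adjusted p = 0.00291), and it was −0.22 without cKO 1. Sptan1 falls in the same length class as Sptbn1, whose median was −0.12.

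The balance of the spectrin pair differed between the groups in every library. The FPKM ratio of Sptan1 to Sptbn1 was 0.988 and 0.902 in cKO 1 and 2, against 3.56, 2.89 and 3.28 in Ctrl 1, 2 and 3. Alpha spectrin transcripts thus exceeded beta spectrin transcripts about 3-fold in every Ctrl library and were about equal to them in both cKO libraries. The log2 ratio differed by −1.78 (cKO minus Ctrl, two-sided exact permutation p = 0.1, the lowest possible). The transcripts are of like length, 7.58 kb for Sptan1 and 8.33 kb for Sptbn1 as implied by their counts and FPKM. As the groups do not overlap in this ratio, leaving out a single library cannot change its direction. The log2 difference ran from −1.86 (without Ctrl 2) to −1.71 (without Ctrl 1).

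Ank2, which encodes ankyrin-B, had 76.9 and 129 CPM in cKO 1 and 2, against 107, 135 and 166 CPM in Ctrl 1, 2 and 3. The groups overlapped, and the log2 fold change of −0.40 (SE 0.28) did not pass (edgeR adjusted p = 0.376). It was −0.82 and passed without cKO 2 (edgeR adjusted p = 0.0268), and it was −0.09 without cKO 1. The median of the 850 genes in its length class, 4 to 6 kb, was −0.31. Against its binding partner Sptbn1, Ank2 had an FPKM ratio of 1.44 and 1.10 in cKO 1 and 2, against 3.72, 3.08 and 4.19 in Ctrl 1, 2 and 3 (log2 difference −1.53, two-sided exact permutation p = 0.1).

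Tmod1, the pointed-end cap of actin filaments, had the smallest difference of the 7 genes. It had 56.8 and 61.5 CPM in cKO 1 and 2, against 53.9, 54.7 and 48.0 CPM in Ctrl 1, 2 and 3. The groups did not overlap but lay close, with a log2 fold change of 0.18 (SE 0.14) that did not pass (edgeR adjusted p = 0.411). Its counts were partly fractional, as estimated counts are where reads are divided between genes, and Tstd2 lies over its exons on the opposite strand (228 and 218 counts in cKO, 356 to 537 in Ctrl). The FPKM ratio of Tmod1 to Sptbn1 was 1.53 and 0.765 in cKO 1 and 2, against 2.56, 1.74 and 1.65 in Ctrl 1, 2 and 3 (log2 difference −0.85, two-sided exact permutation p = 0.1).

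**Figure D2:**
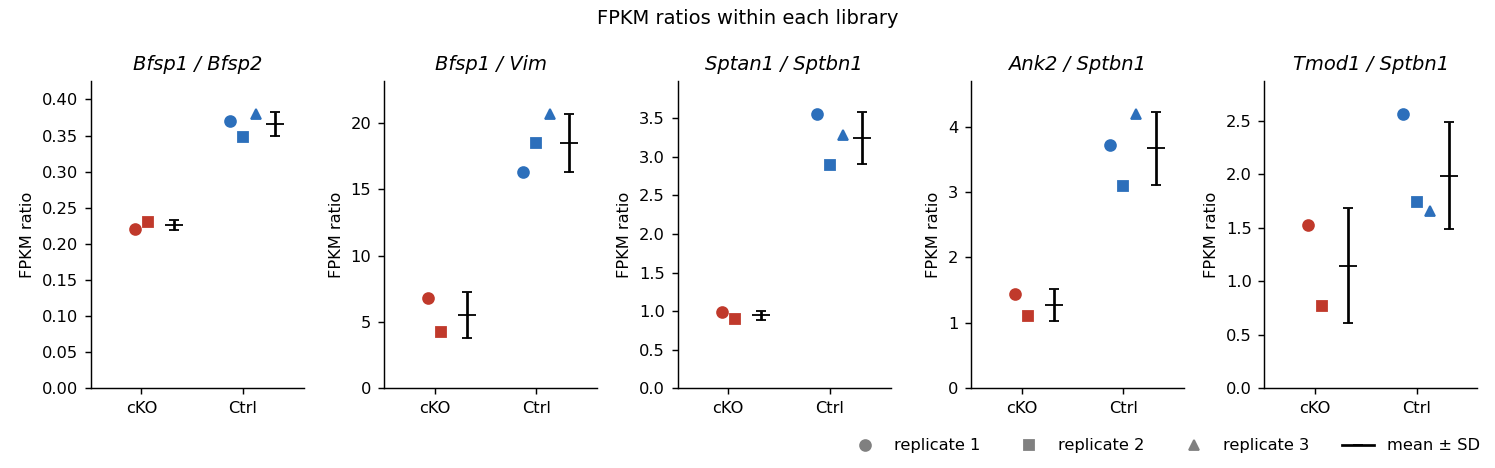
FPKM ratios of 5 gene pairs within each library, with cKO in red and Ctrl in blue, replicates by marker shape and black bars for mean ± SD (n = 2 and 3). The Sptan1 to Sptbn1 ratio is 0.902 and 0.988 in cKO and 2.89 to 3.56 in Ctrl. No pair overlaps between the groups, but the pairs share Sptbn1 or Bfsp1 and are not separate results. Of single genes tested, 51.5% do not overlap either, and no such share was computed for ratios.

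Counting all 7 genes, 3 lay above every Ctrl library in both cKO libraries (Vim, Tmod1 and Sptbn1) and 2 lay below (Bfsp1 and Bfsp2). Over all genes tested, 22.8% lay above and 28.7% below, 51.5% in all, and nothing is read from 5 of 7 beside that background.

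**Figure D3:**
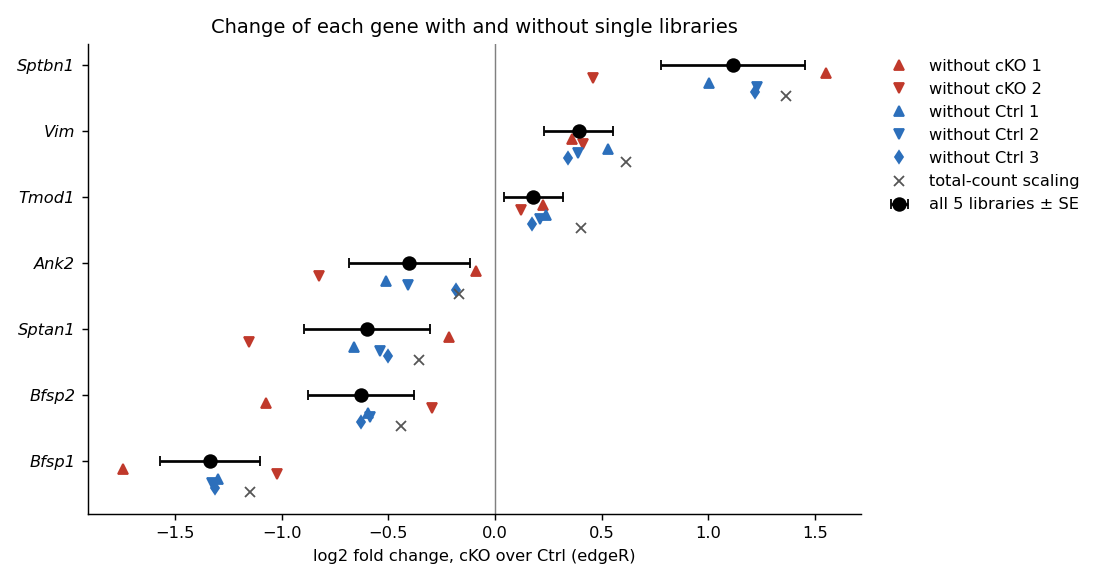
Log2 fold change of cKO over Ctrl by edgeR for each gene, with black points and bars for all 5 libraries ± SE and coloured markers for fits that leave out 1 library or scale by total counts. Bfsp1 runs from −1.74 to −1.02 and Sptbn1 from 0.46 to 1.55 over the fits that leave out a library, and no gene crosses 0.

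The cKO libraries differed from each other in most of the 7 genes. Relative to cKO 1, cKO 2 had 1.93-fold more Sptan1, 2.15-fold more Sptbn1 and 1.68-fold more Ank2, while Bfsp1 and Bfsp2 were at 0.613 and 0.589 of their cKO 1 level. Vim (0.974) and Tmod1 (1.08) were nearly equal. On the log2 scale the spectrins stood at 0.95 and 1.11, against a median of 0.26 for genes above 6 kb, and Ank2 at 0.75, against 0.20 for 850 genes of 4 to 6 kb. Bfsp1, of 2.30 kb, stood at −0.71, against 0.03 for 3068 genes of 2 to 4 kb. Bfsp2, of 1.66 kb, stood at −0.76, against −0.16 for 1922 genes of 1 to 2 kb. All 5 genes thus lay further from equality than the median gene of their length. The direction was the same for all but Bfsp1, whose class median was close to 0. All these medians were small and the spread within a class is not given, so nothing is read from this.

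**Figure D4:**
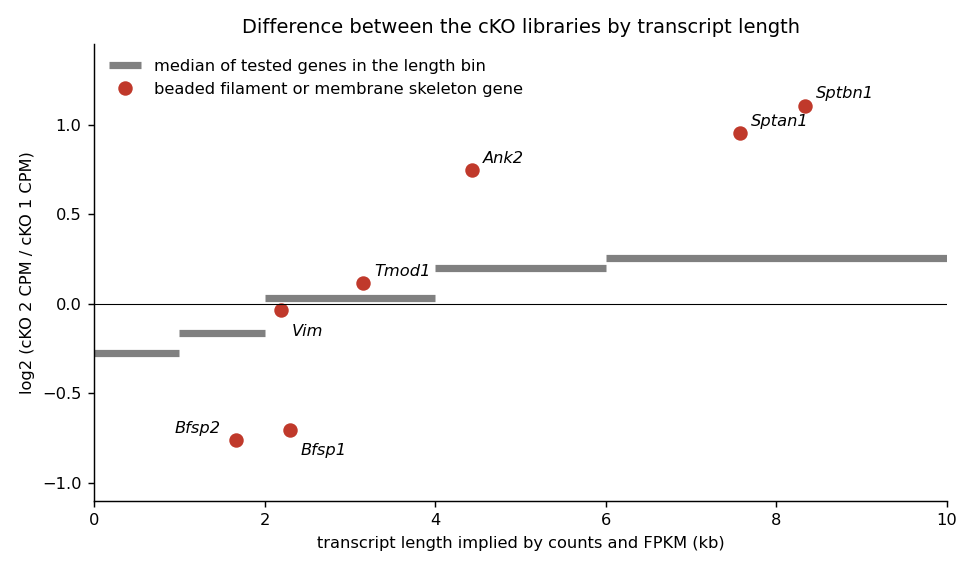
Log2 ratio of CPM in cKO 2 over cKO 1 against the transcript length implied by counts and FPKM, with red points for the 7 genes and grey bars for the median of the genes in each length class, 6704 in all with at least 50 counts and 0.5 FPKM in every library (the last class, above 6 kb, has no upper limit). The spectrin genes and Ank2 lie at 0.75 to 1.11 and the beaded filament genes at −0.76 and −0.71.

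The length implied by a gene's count and FPKM is an average over its transcripts, so it can show a shift in transcript use. For Bfsp1, Bfsp2, Vim, Tmod1 and Sptbn1 it varied by at most 0.614% over the 5 libraries. For Ank2 it was 4.54 and 4.60 kb in cKO 1 and 2, against 4.31, 4.42 and 4.31 kb in Ctrl 1, 2 and 3, with no overlap (two-sided exact permutation p = 0.1). For Sptan1 it was 7.89 and 7.73 kb in cKO 1 and 2, against 7.35, 7.72 and 7.19 kb in Ctrl 1, 2 and 3 (two-sided exact permutation p = 0.2). Bfsp1, Bfsp2 and Vim had the same value as Ank2 (two-sided exact permutation p = 0.1), with lengths that varied by at most 0.555%. The absence of overlap alone therefore does not set Ank2 apart, and no share of genes without overlap in length is given here. The mean implied length was 5.18% greater in cKO for Ank2 and 5.23% greater for Sptan1, and which transcripts carried this cannot be read from the table.

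In the annotation of the deposited table, all 7 genes carry the term cytoskeleton, as do 1338 genes in all. The narrowest term that at least 4 of them share is lens fiber cell development, which has 7 genes in the table, among them Bfsp1, Bfsp2, Vim and Tmod1. The spectrins share cortical cytoskeleton with Tmod1 (29 genes).

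Genes with the most similar profile were sought over the 5 libraries among 4212 abundant genes, by the Euclidean distance of log2 CPM centred on Ctrl. Nearest to Bfsp1 were Poldip3 (distance 0.076), Ncoa2 (0.121) and Plaat3 (0.169). All 3 were called lower, which largely follows from their choice by likeness to Bfsp1 and is no separate result. Plaat3 encodes a phospholipase known for organelle clearance in lens fibres, and it had 193 and 134 CPM in cKO 1 and 2, against 429, 406 and 381 CPM in Ctrl 1, 2 and 3. Nearest to Bfsp2 were Tardbp (0.105), Tst (0.110) and Ndrg1 (0.112). Nearest to Vim were Mrps21 (0.0924), Uqcr11 (0.108) and Glrx2 (0.108), and nearest to Tmod1 were Rbm17 (0.0954), Cryaa (0.105) and Naxd (0.107). Nearest to Sptan1 were Arhgap12 (0.136), Copg2 (0.153) and Gpr107 (0.160), and nearest to Ank2 were Abcc8 (0.205), Gbf1 (0.242) and Tmem129 (0.244). Nearest to Sptbn1 were Slc25a22 (0.237), Macf1 (0.289) and Nsdhl (0.298). Between the 7 genes, the closest pairs were Vim with Tmod1 (0.376) and Sptan1 with Ank2 (0.457), whereas Sptan1 and Sptbn1 were 2.41 apart and Bfsp1 and Bfsp2 0.998 apart.

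The other intermediate filament, lamin and plakin genes gave 0 calls among 12 tested of 15, by edgeR (2 higher and 1 lower at an unadjusted p under 0.05, and 2 higher and 1 lower by DESeq2). Their median log2 fold change was −0.81, with 4 genes above 0 and 8 below. Some of the 8 rest on few counts, such as Des (8 and 0 in cKO, 113, 64 and 0 in Ctrl) and Nes (16 and 2 in cKO, 40, 12 and 17 in Ctrl). Others do not, such as Ppl (217 and 554 counts in cKO, 737, 483 and 654 in Ctrl). Synemin (Synm), an intermediate filament protein that pairs with vimentin, had 41.5 and 77.0 CPM in cKO 1 and 2, against 55.9, 57.8 and 56.9 CPM in Ctrl 1, 2 and 3 (0.06, SE 0.26, edgeR adjusted p = 0.904). Plectin (Plec), which links intermediate filaments to other filaments and to membranes, had 31.7 and 68.7 CPM in cKO, against 27.1, 28.8 and 24.9 CPM in Ctrl (0.90, SE 0.31, edgeR adjusted p = 0.107).

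Among the other spectrins, ankyrins, adducins and 4.1 proteins, 1 gene was higher and 4 were lower of 13 tested, with a median of −0.50. Adducins join spectrin to actin filament ends. Add1 fell by 0.72 (SE 0.15, edgeR adjusted p = 0.0307), with 73.0 and 79.4 CPM in cKO and 112, 133 and 133 CPM in Ctrl, although the call was lost under total-count scaling (edgeR adjusted p = 0.125). It was also lost by limma on log2(FPKM + 1) and log2(FPKM + 0.1), with adjusted p = 0.0986 and 0.0966. Add3 fell by 2.31 with an SE of 0.38 (edgeR adjusted p = 0.0202), having 2.33 and 1.15 CPM in cKO and 9.97, 7.66 and 8.17 CPM in Ctrl. Ank1, the ankyrin best known from red cells, fell by 3.39 (SE 0.74, edgeR adjusted p = 0.0354), at low levels throughout, with 2 and 4 counts in cKO and 27, 22 and 38 counts in Ctrl. The Ank1 call was lost with no filter on low counts (edgeR adjusted p = 0.0502). By limma its difference was −0.31 on log2(FPKM + 1) and −1.45 on log2(FPKM + 0.1), with adjusted p = 0.0828 and 0.0560.

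Chosen after their values were seen as the remaining called genes of that list, Epb41l2 (protein 4.1G) was lower, with 27.3 and 48.7 CPM in cKO and 81.0, 78.1 and 96.0 CPM in Ctrl (−1.16, SE 0.27, edgeR adjusted p = 0.0407). Dmtn (dematin, an actin-bundling protein) was higher, with 34.7 and 49.6 CPM in cKO and 15.2, 16.0 and 19.0 CPM in Ctrl (1.33, SE 0.20, edgeR adjusted p = 0.0170). Whether the Epb41l2 and Dmtn calls hold in the alternative fits is not reported here. Epb41 (protein 4.1R), which strengthens the spectrin and actin contact, had 85.1 and 135 CPM in cKO and 104, 119 and 116 CPM in Ctrl, and was not called (edgeR adjusted p = 0.927). Several of these proteins also belong to the red cell skeleton. The 7 erythroid markers summed to 65.6 and 2.20 CPM in cKO 1 and 2 and 5.42 to 49.99 CPM in Ctrl, with Slc4a1 at 0 counts in every library.

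Tropomodulins, tropomyosins, actins and capping proteins gave 0 calls among 11 tested of 13, by edgeR (1 higher and 2 lower at an unadjusted p under 0.05, and 1 higher and 0 lower by DESeq2), with a median of −0.07. In both cKO libraries, 3 of these genes lay above every Ctrl library and 3 lay below, against 22.8 and 28.7% of all genes tested. The actin genes Actb (1807 and 1768 CPM in cKO, 1500, 1518 and 1410 CPM in Ctrl) and Actg1 (489 and 532 CPM in cKO, 380, 341 and 303 CPM in Ctrl) were among those above. Neither was called by edgeR with TMM scaling, with log2 fold changes of 0.28 for Actb (SE 0.13, edgeR adjusted p = 0.210) and 0.58 for Actg1 (SE 0.15, edgeR adjusted p = 0.0546). Actg1 was called higher by edgeR with RLE size factors (adjusted p = 0.0496), under total-count scaling (0.0256) and without either cKO library (0.0187 and 0.0306 without cKO 1 and 2). DESeq2 called it as well (adjusted p = 0.00227), as did limma on log2(FPKM + 1) and log2(FPKM + 0.1), where its difference was 0.80 for both. The same limma fits called Actb, at 0.54 in both.

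Of 9 membrane partners tested, 1 was higher and 1 lower, with a median of −0.21. Msn, which encodes moesin, a link between actin and membrane proteins that is abundant in leukocytes and endothelium, rose by 1.54 (SE 0.14, edgeR adjusted p = 0.00550), with 44.2 and 41.6 CPM in cKO and 14.7, 15.7 and 13.7 CPM in Ctrl. The macrophage markers were higher in the same libraries, and their part in the Msn values was not tested. Mip (aquaporin-0), which binds the beaded filament proteins, had 1514 and 2384 CPM in cKO and 1857, 2086 and 1729 CPM in Ctrl, and Nrcam, an ankyrin-bound adhesion protein, 229 and 391 CPM in cKO and 254, 310 and 290 CPM in Ctrl. Neither was called (edgeR adjusted p = 0.918 and 0.774).

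Calpains and caspases cut spectrin, vimentin and the beaded filament proteins as fibres mature. Of 8 tested, 1 was higher and 1 lower, with a median of −0.18. Capns1, the small regulatory subunit of some calpains, rose by 1.02 (SE 0.15, edgeR adjusted p = 0.0148). It had 24.7 and 27.7 CPM in cKO and 12.5, 12.9 and 13.2 CPM in Ctrl. Capn3, whose lens-specific product is Lp82 in rodents, had 108 and 114 CPM in cKO and 122, 150 and 174 CPM in Ctrl (−0.42, SE 0.18, edgeR adjusted p = 0.175). Add1, Add3, Ank1, Msn and Capns1 each lost the call without Ctrl 1 and without Ctrl 2, and all of these but Msn also without Ctrl 3.

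**Figure D5:**
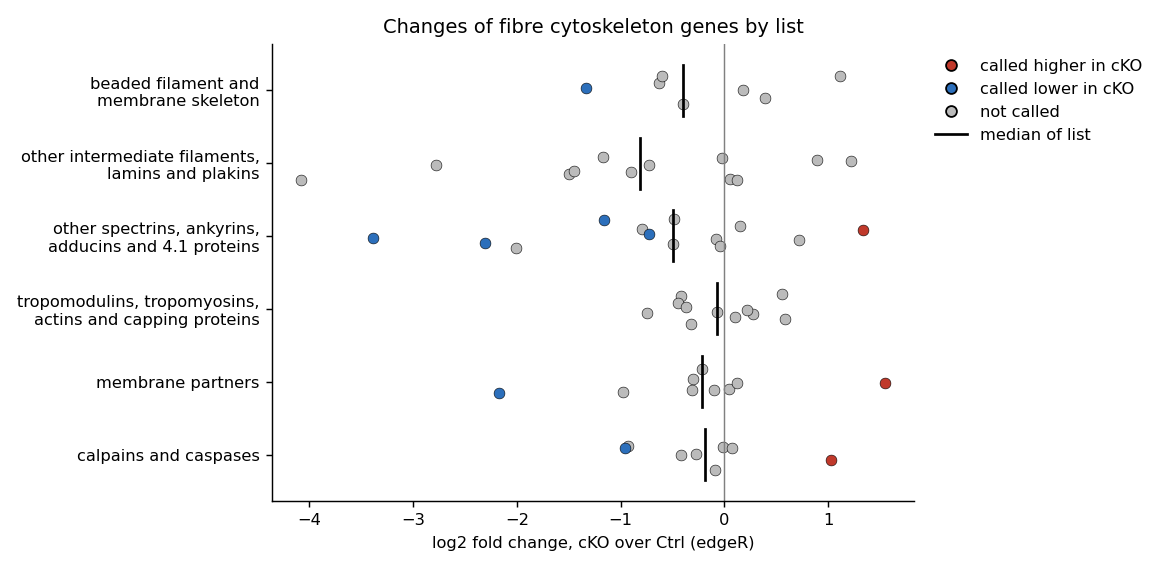
Log2 fold change of cKO over Ctrl by edgeR for every tested gene of the 6 lists, with red for genes called higher, blue for genes called lower, grey for genes not called and a black line for the median of each list (points are spread vertically for clarity). Medians lie between −0.81 and −0.07, the lowest in a list that includes genes of few counts, and Bfsp1 is the blue point of the top row.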

How the data were processed

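The authors deposited 1 table with an expected (estimated) count and an FPKM value per gene and library. The expected counts as deposited carry no scaling, as their differing library totals show, and the deposited FPKM values are scaled by length and library size, per the file headers. RSEM, Trimmomatic 0.18.0 and build GRCm39 are listed without roles, per the submitters' processing notes. Neither aligner nor strand setting is stated there. The labels describe pools of 4 to 6 lenses, and p-values measure the spread between these pools.

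Expected counts were rounded, filtered with filterByExpr (minimum count 10, total 15; 11724 genes left), TMM-scaled and tested with edgeR 4.0.16 (quasi-likelihood, Benjamini-Hochberg over all genes tested, R 4.3.3). The scripts were tested on simulated data. DESeq2 1.42.0, limma 3.58.1 on log2 FPKM plus 1 or 0.1, and other scalings and filters served as alternatives. SE were taken from the F statistic. Ratios of FPKM were compared by an exact permutation test over 10 splits, with SDs over the libraries. Depth was 22047553 to 25762805 counts per library.

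Implied length is the expected count divided by FPKM and by library size, for 6704 tested genes with at least 50 counts and 0.5 FPKM in every library. It and the length classes were chosen after the values were seen. Genes and lists were chosen with earlier results of these data known. Named are all 7 genes, and of each list the 2 most abundant tested genes and the 2 called genes with the largest change. For each of the 7, the 3 nearest profiles are named among tested genes with a regular symbol and a mean of at least 10 CPM. Some genes that these rules name are not reported here.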

Additional observations from a re-analysis of the deposited data

How the results depend on the processing

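With 2 cKO and 3 Ctrl pools, few calls are stable. Leaving out 1 library gave 6 to 2197 genes called higher and 15 to 2963 lower, the low ends without Ctrl 2 and the high ends with 1 cKO library left. Among the 7 genes this gave 0 to 1 higher and 0 to 3 lower. Main counts were 675 higher and 906 lower. Total-count scaling gave 1234 higher, DESeq2 1185 higher and 1542 lower, and limma on FPKM + 1 and FPKM + 0.1 1380 and 1402 higher. Of all calls, 42.7% were higher in the main test, 63.2% under total-count scaling and 65.0 and 62.7% with FPKM + 1 and + 0.1. Among the 7 genes, total-count scaling, DESeq2, FPKM + 1 and FPKM + 0.1 each gave 1 higher.

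The replicate numbers are shared by the groups, and the labels do not say that they pair them or give litters by replicate. Deviations of same-numbered libraries correlated at 0.111 and −0.083. The deviations of the 2 cKO libraries mirror each other, so these values cannot settle whether the libraries are paired. A fit with the replicate block gave 72 genes higher and 110 lower and 0 of the 7 genes lower, with Bfsp1 at −1.40 (edgeR adjusted p = 0.0777). Add1, Add3, Ank1, Msn and Capns1 were not called in it (edgeR adjusted p = 0.200, 0.0738, 0.311, 0.0562 and 0.120).

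Ranges with 1 library left out were −1.74 to −1.02 for Bfsp1, −1.07 to −0.29 for Bfsp2, −1.15 to −0.22 for Sptan1, 0.46 to 1.55 for Sptbn1 and −0.82 to −0.090 for Ank2. Vim passed at 0.61 under total-count scaling, at 0.61 with FPKM + 1 and at 0.62 with FPKM + 0.1, and Sptbn1 at 1.13 by DESeq2. The difference in the share of counts ranged from −0.519 to −0.293 percentage points, and was −1.92 points of counts outside crystallins. The log2 ratio of Bfsp1 to Vim ranged from −2.11 to −1.44 and that of Tmod1 to Sptbn1 from −1.35 to −0.35. Log2 fold changes of 4 uncalled genes turned sign. Synm was −0.030, −0.041 and −0.0079 with FPKM + 1, FPKM + 0.1 and the replicate block and −0.45 without cKO 2. Epb41 was 0.20 under total-count scaling, 0.013 with FPKM + 1 and 0.012 with FPKM + 0.1, 0.24 without cKO 1 and 0.04 without Ctrl 3. Mip was −0.051 with the replicate block and −0.32 without cKO 2, and Nrcam −0.31 without cKO 2. With 1 library left out, the other ends were 0.42 for Synm, −0.41 for Epb41, 0.32 for Mip and 0.45 for Nrcam. The cause was not tested. Of 180 values for the 15 other named genes, 125 kept direction and side of the threshold, 29 lost a call, 14 gained one and 12 turned sign.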
